A study of Mus musculus with 6 samples.

Results

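The genes described here encode the core machinery that forms autophagosomes. They are 35 genes listed by symbol: the subunits of the ULK kinase complex and of the class III PI3-kinase complex, the lipid transfer and membrane proteins, the conjugation enzymes, and 2 factors of closure and fusion. The ATG8 genes, which encode the LC3 and GABARAP proteins, were left out of the list. All 35 symbols were found once among the 22298 entries of the expression table. The list uses no measured value, but it was proposed with results of these data in view.

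Autophagy encloses cytoplasm in a double membrane and delivers it to lysosomes. The ULK kinase complex starts the process, and the class III PI3-kinase then makes the lipid PI3P, to which WIPI proteins bind. Membrane grows by lipid transfer through ATG2 and lipid scrambling by ATG9, and 2 linked conjugation reactions attach ATG8 proteins to it. In the lens, fibre cells lose their organelles as they mature, and mouse lenses that lack Atg5 or Pik3c3 develop cataract. Fyco1 encodes an adaptor that binds LC3, PI3P and RAB7 on finished autophagosomes and links them to kinesin motors.

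Ocular lenses of newborn mice (postnatal day 0, strain C57BL/6 in both groups) were compared between wild-type (WT) and Fyco1-/- animals. Each genotype has 3 RNA-seq libraries (A, B and C), named as biological replicates and each made from 10 pooled lenses. The Fyco1-/- allele, and the parts of the gene it removes, are not given in the sources used here. Where 3 values follow each other they are those of libraries A, B and C, in that order. Expression values are FPKM, fragments scaled for the length of the gene and for the mapped reads of the library. Levels can thus be set side by side between genes. For members whose exons overlap another gene, the level also depends on how shared reads were counted, which is not given. Rb1cc1, Atg14, Atg2b and Vmp1 share 2.4% to 5.5% of their exon bases with another gene, and members with larger shares are named below.

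The libraries held an estimated 17.1 to 20.04 M reads, read from the spacing of low FPKM values. Fyco1 itself read 5.40, 5.21 and 5.11 FPKM in WT and 4.61, 4.59 and 4.87 FPKM in Fyco1-/-. All Fyco1-/- values lay below all WT values, at a ratio of 0.895. This difference was not called (limma adjusted p = 0.273), so the transcript level does not check the genotype labels. The 6 fibre markers summed to 190670 to 197200 FPKM in WT and 191480 to 196870 FPKM in Fyco1-/-. Most of that sum was Cryaa and Crygd, at means of 118090 and 67257 FPKM over all libraries. Of the 6, 1 was called higher (Crybb2, ratio 1.45) and 1 lower (Crygd, ratio 0.941). The 6 epithelium markers summed to 243 to 290 FPKM in WT and 195 to 219 FPKM in Fyco1-/-, with 2 of the 6 called lower. Gja1 alone among them was higher in Fyco1-/-, at a ratio of 1.17, and was not called. Retinal neuron markers (4 of 5 in the table) reached at most 0.784 FPKM, corneal markers (3 of 5) 1.14 FPKM, pigment epithelium markers (5 of 5) 1.35 FPKM and macrophage markers (4 of 5) 2.11 FPKM when summed. Of these, 2 retinal, 2 pigment and 1 macrophage marker averaged under 0.1 FPKM. The 5 vessel markers summed to 16.3 to 22.8 FPKM in WT and 15.0 to 17.4 FPKM in Fyco1-/-. The 5 pericyte and mesenchyme markers summed to 20.7 to 29.7 and 21.8 to 22.1 FPKM, most of it Rgs5, at a mean of 18.8 FPKM. Among these, Col1a1 and Col3a1 were lower in Fyco1-/- without overlap, at ratios of 0.361 and 0.518, and neither was called. The 5 red cell markers summed to 81.3 to 195 FPKM in WT and 102 to 241 FPKM in Fyco1-/-. The part of the lower epithelium markers in the differences below was not tested. In these bulk samples fewer cells of a type and less RNA per cell cannot be told apart.

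The comparison asks whether loss of Fyco1 goes with a different transcript level of the machinery that builds autophagosomes. None of the 35 members passed the test in either direction (limma, Benjamini-Hochberg adjusted p under 0.05 over 12001 tested genes), while 8.43% of all tested genes did. The members closest to the threshold were Atg9a and Becn1, which were higher in Fyco1-/-, and Ulk2 and Uvrag, which were lower. At an unadjusted p under 0.05 there were 7 members, 4 higher and 3 lower, against 24.4% of all tested genes (1118 higher and 1812 lower). The median log2 fold change of the members was -0.0086, beside -0.043 for all tested genes. Of the members 17 were positive and 18 negative, and of all tested genes 4809 were positive and 7192 negative. The split of the members depended on the scaling: 24 were positive with quantile normalization and 23 with median-of-ratios scaling. For each of the 35 members the 95% interval of the difference lay within 1.5-fold in both directions, as it did for 81.7% of all tested genes. For 20 of the 35 it lay within 1.25-fold, as for 39.96% of all tested genes. These bounds hold for the FPKM as deposited, on the scale of FPKM + 0.5. They were not computed with other scalings or with a library left out. The intervals of Uvrag (to -0.57) and Atg9a (to 0.55) end close to the 1.5-fold bound of 0.585.

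**Figure D1:**
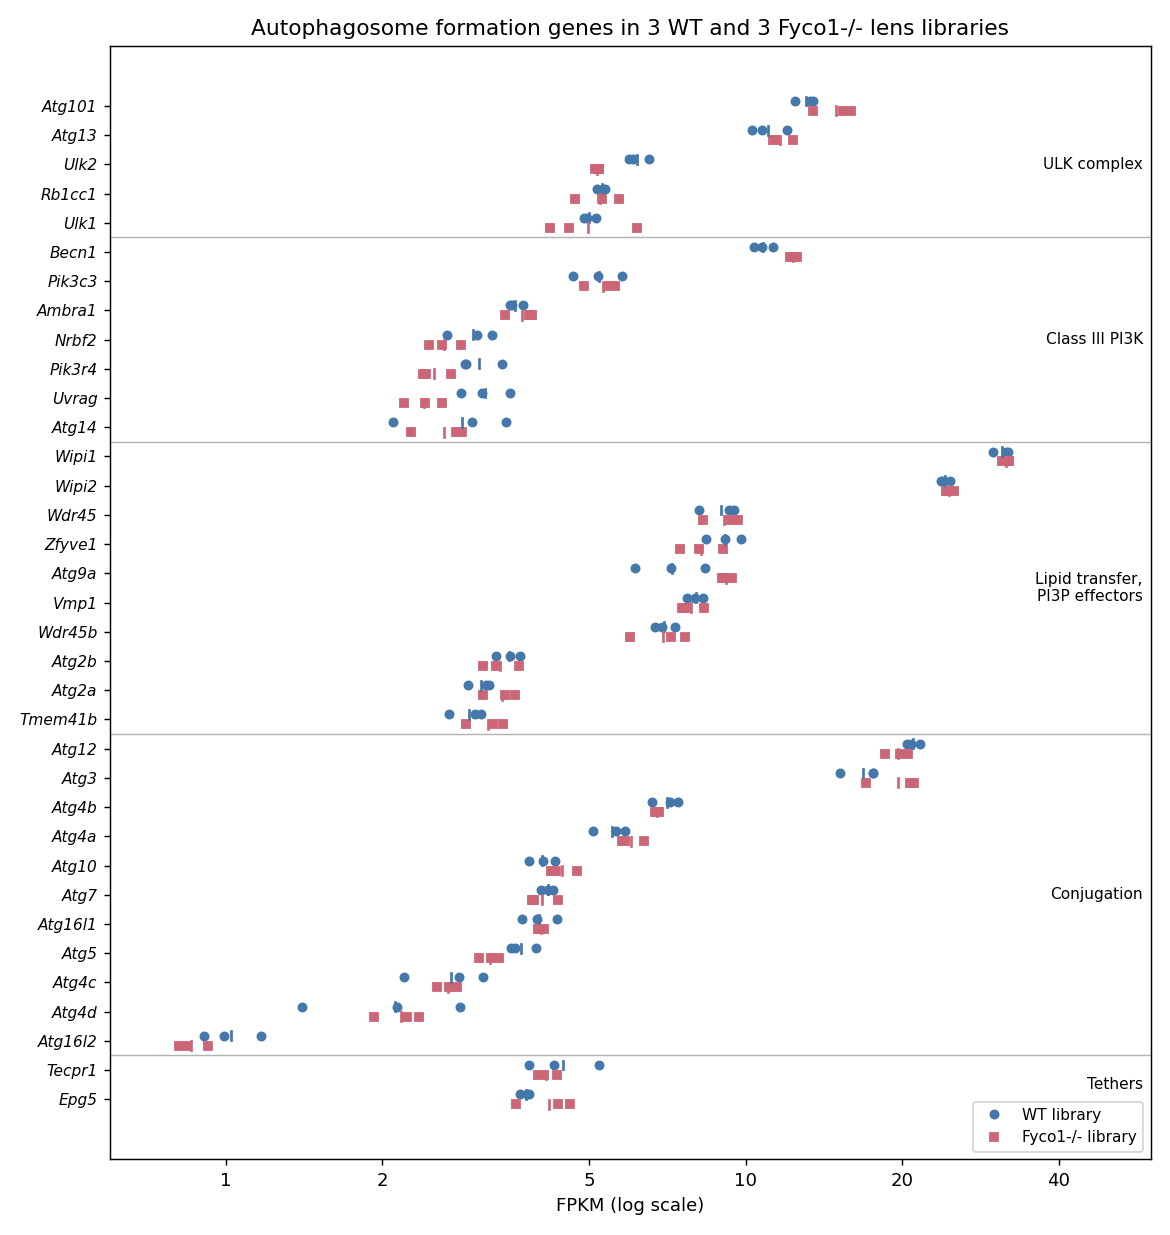
FPKM of each member (log axis) in 3 WT libraries (blue circles) and 3 Fyco1-/- libraries (red squares), with the mean of each genotype as a vertical bar, grouped by role. Levels run from a mean of 0.941 FPKM for Atg16l2 to 31.4 FPKM for Wipi1, and the libraries of the genotypes overlap for 28 of the 35 genes.

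**Figure D2:**
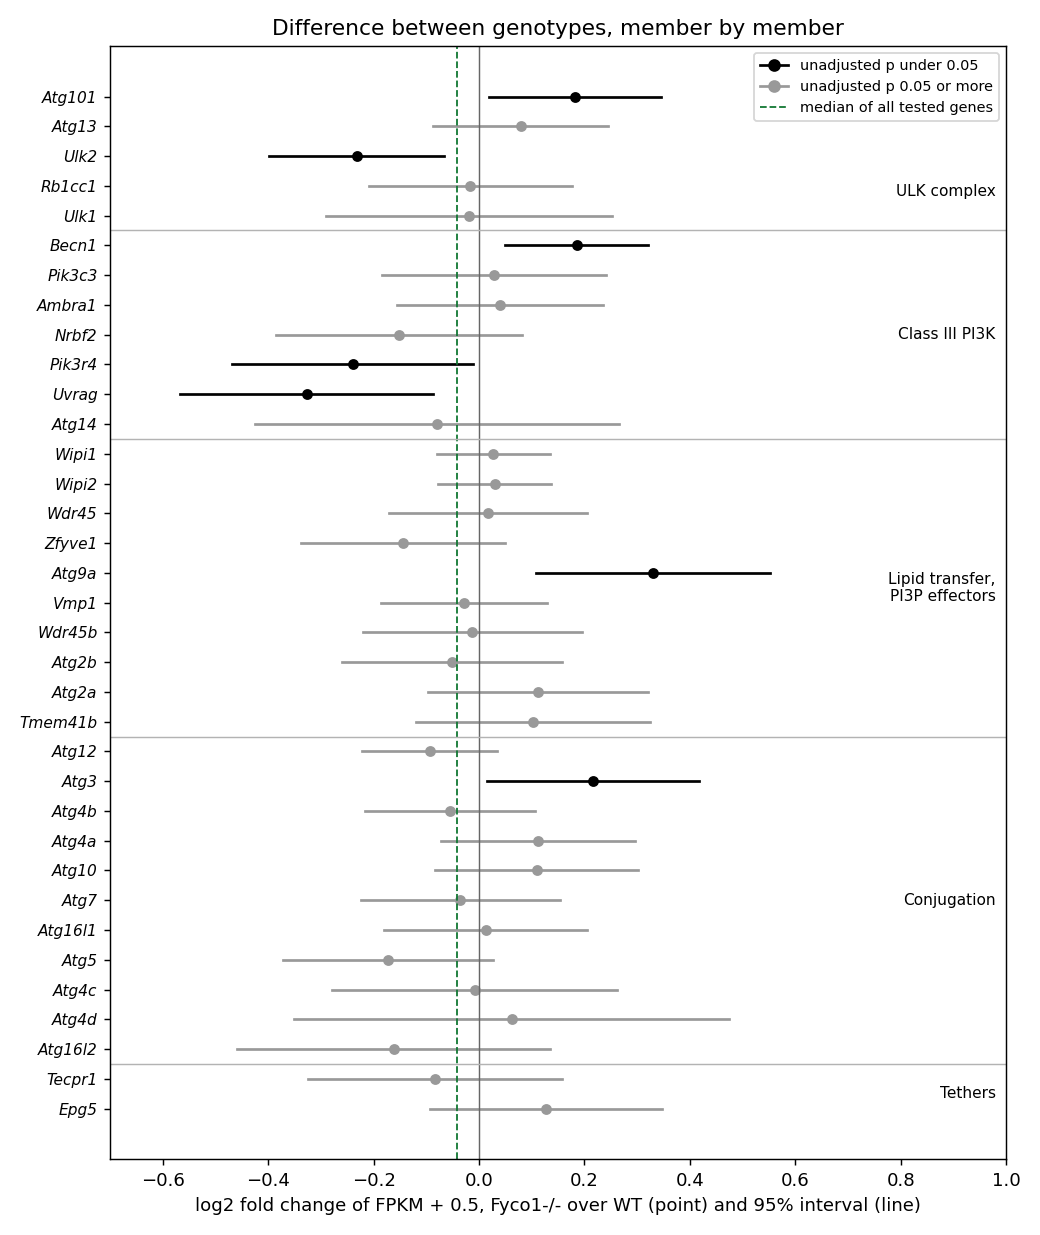
Log2 fold change of FPKM + 0.5 in Fyco1-/- over WT (points) with its 95% interval (lines) for each member, in the order of the plot of levels. The 7 members with an unadjusted p under 0.05 are black, 4 to the right of 0 and 3 to the left, and the interval that reaches furthest from 0 is that of Uvrag, to -0.57.

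The machinery was expressed at a moderate level in the newborn lens. Of the 35 members, 18 lay above the median level of tested genes and 1 in the top 10% (Wipi1, at the 91.0 percentile). Their summed FPKM was 261, 260 and 252 in WT and 269.9, 264 and 255 in Fyco1-/-, so the sums overlapped. An estimated 86 to 5025 reads per library stood behind each member. The standard error of the log2 difference ran from 0.048 to 0.184 with a median of 0.090. Across the 35 genes it was smaller where the estimated reads were higher (Spearman's rho -0.53, a description over genes that share the same 6 libraries). The fit moves each error toward a trend over expression level, so part of this relation is built in. The 3 libraries of 1 genotype lay wholly above those of the other for 7 members, against 29.7% of all tested genes.

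The ULK complex holds the kinases ULK1 and ULK2, the regulatory subunit ATG13, the scaffold FIP200 (encoded by Rb1cc1) and ATG101, which stabilises ATG13. Its 5 genes had mean levels of 4.99 to 14.0 FPKM, in the order Atg101, Atg13, Ulk2, Rb1cc1 and Ulk1, taken over all 6 libraries. In Fyco1-/- the libraries of Ulk2, Rb1cc1 and Ulk1 overlapped, so these 3 have no order there. Ulk2 (ENSMUSG00000004798, GRCm38 chromosome 11, 61775649 to 61855073, on the minus strand) had 6.53, 6.06 and 5.96 FPKM in WT and 5.22, 5.22 and 5.12 FPKM in Fyco1-/-. The 3 Fyco1-/- values lay close together and below all WT values, at a ratio of 0.839. The log2 difference was -0.23 with an SE of 0.074 (limma adjusted p = 0.0882), and it kept its sign in all 15 alternative settings without a call in any.

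Atg101 (ENSMUSG00000037204, chromosome 15, 101284272 to 101290945) measured 13.5, 13.3 and 12.5 FPKM in WT and 15.9, 15.4 and 13.5 FPKM in Fyco1-/-. The groups met almost at 1 value, Fyco1-/- C being just above WT A. The log2 difference was 0.18 with an SE of 0.073 (limma adjusted p = 0.1598). Ulk1 measured 4.96, 4.89 and 5.14 FPKM in WT and 6.17, 4.58 and 4.21 FPKM in Fyco1-/-. Fyco1-/- A was the highest of the 6 libraries and Fyco1-/- C the lowest, and the means were 4.998 ± 0.131 and 4.98 ± 1.04 FPKM (SD over n = 3 libraries, as with all means that follow). Without Fyco1-/- A the log2 fold change of Ulk1 was -0.17, and without Fyco1-/- C it was 0.082. Atg13 measured 11.0 ± 0.894 and 11.7 ± 0.598 FPKM in WT and Fyco1-/- and Rb1cc1 5.29 ± 0.0996 and 5.23 ± 0.506 FPKM.

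The class III PI3-kinase complex makes PI3P on the forming membrane. Its catalytic subunit VPS34 is encoded by Pik3c3 and its regulatory subunit VPS15 by Pik3r4, and Beclin 1 (Becn1) is its scaffold. ATG14 directs it to autophagosome formation and UVRAG to endosomes, AMBRA1 and NRBF2 being further regulators. The 7 genes had mean levels of 2.74 to 11.6 FPKM, and 4 of the 7 were lower and 3 higher in Fyco1-/-, none of them called.

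Becn1 (ENSMUSG00000035086, GRCm38 chromosome 11, 101285952 to 101302286, on the minus strand) had 10.7, 11.3 and 10.4 FPKM in WT. Its Fyco1-/- values were 12.5, 12.2 and 12.3 FPKM, each above every WT library, with means of 10.8 ± 0.455 and 12.3 ± 0.174 FPKM. The log2 difference was 0.18 with an SE of 0.061 (95% interval 0.049 to 0.32, limma adjusted p = 0.0973). Of the annotated exon bases of Becn1, 43.9% overlap exons of Cntd1 on the opposite strand, which read 0.0751 FPKM over all libraries. Whether the counting used strand is not given in the sources used here.

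Uvrag (ENSMUSG00000035354, chromosome 7, 98885021 to 99141141, on the minus strand) had 3.52, 2.84 and 3.11 FPKM in WT and 2.61, 2.20 and 2.42 FPKM in Fyco1-/-. All Fyco1-/- values lay below all WT values, at a ratio of 0.764, the lowest of the 35 members. The log2 difference was -0.33 with an SE of 0.11 (limma adjusted p = 0.0967). An antisense transcript, Gm45187, covers 17.6% of the exon bases of Uvrag. Pik3r4 measured 3.41, 2.89 and 2.90 FPKM in WT and 2.40, 2.71 and 2.43 FPKM in Fyco1-/-, again with no overlap (log2 -0.24, SE 0.10, limma adjusted p = 0.184). Pik3r4 lies on chromosome 9, at 105642978 to 105687657, 18.1 Mb from Fyco1 and 2.16 Mb from Bfsp2, which encodes a beaded filament protein of lens fibres. Atg4d is the other member on chromosome 9, 102.51 Mb from Fyco1. The part of the shared chromosome in the lower Pik3r4 level was not tested.

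The other 4 genes of the complex, Pik3c3, Atg14, Ambra1 and Nrbf2, overlapped between genotypes. Pik3c3, the catalytic subunit, measured 5.22 ± 0.560 and 5.32 ± 0.387 FPKM in WT and Fyco1-/- (95% interval of the log2 difference -0.19 to 0.24). Atg14 measured 2.10, 2.97 and 3.46 FPKM in WT and 2.77, 2.85 and 2.27 FPKM in Fyco1-/-. WT libraries held both its lowest and its highest value, and its interval was wide (-0.43 to 0.27). Ambra1 measured 3.602 ± 0.106 and 3.72 ± 0.246 FPKM. Nrbf2 measured 3.26, 3.05 and 2.66 FPKM in WT and 2.84, 2.46 and 2.61 FPKM in Fyco1-/-, which overlap (log2 -0.15, limma adjusted p = 0.414). Nrbf2 has near-identical copies, Gm6740 (1756 aligned bases) and Gm6755 (864 aligned bases). Gm6740 itself read 0.0111 FPKM, and the part of the copies in the measured level of Nrbf2 was not tested.

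Among the 10 genes of lipid transfer, membrane proteins and PI3P effectors, 1 had an unadjusted p under 0.05. Atg9a, which encodes the lipid scramblase carried by the vesicles that seed the membrane, had the lowest p of all members. It lies on GRCm38 chromosome 1 at 75180860 to 75192196, minus strand (ENSMUSG00000033124). Atg9a measured 7.20, 8.36 and 6.13 FPKM in WT and 9.04, 9.41 and 8.99 FPKM in Fyco1-/-. The Fyco1-/- values lay close together above a wider spread of WT values, with means of 9.15 ± 0.226 and 7.23 ± 1.117 FPKM. The ratio of means was 1.27, and the log2 difference was 0.33 with an SE of 0.10 (95% interval 0.11 to 0.55, limma adjusted p = 0.0740). WT B was the nearest to the Fyco1-/- libraries, and without it the log2 fold change was 0.43 and was called (limma adjusted p = 0.0275). Without any 1 of the other libraries it was not called (limma adjusted p = 0.124 to 0.181), and without WT C the log2 fold change was 0.22. Gm29253, annotated on the same strand, shares 31.8% of the exon bases of Atg9a.

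WIPI proteins bind PI3P, and WIPI2 recruits the conjugation machinery. Wipi1 and Wipi2 were the most abundant members, at 31.1 ± 1.06 and 24.1 ± 0.508 FPKM in WT and 31.7 ± 0.560 and 24.6 ± 0.431 FPKM in Fyco1-/-. Their intervals were among the narrowest, -0.080 to 0.13 for Wipi1 and -0.079 to 0.14 for Wipi2. By library, Wipi1 ran 31.9, 31.6 and 29.9 FPKM in WT and 32.0, 32.0 and 31.1 FPKM in Fyco1-/-. Wipi2 ran 24.7, 23.7 and 24.0 FPKM in WT and 24.5, 24.3 and 25.1 FPKM in Fyco1-/-. In both genes the ranges of the genotypes overlapped. Wdr45, which encodes WIPI4, ran 9.504, 8.12 and 9.29 FPKM in WT and 9.65, 9.31 and 8.29 FPKM in Fyco1-/-. Wdr45b, which encodes WIPI3, ran 6.91, 7.30 and 6.69 FPKM in WT and 7.63, 5.99 and 7.18 FPKM in Fyco1-/-. Neither separated the genotypes, and their means differed by under 0.02 on the log2 scale. Gm45208, on the same strand, shares 24.7% of the exon bases of Wdr45.

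The other genes of that group were at 3.06 to 8.66 FPKM over all libraries. ATG2A and ATG2B form the bridges through which lipids flow. Atg2a measured 2.92, 3.21 and 3.17 FPKM in WT and 3.44, 3.61 and 3.13 FPKM in Fyco1-/-. Atg2b measured 3.31, 3.52 and 3.69 FPKM in WT and 3.66, 3.31 and 3.13 FPKM in Fyco1-/-. Neither gene separated the genotypes. Vmp1 and Tmem41b, which encode scramblases of the endoplasmic reticulum, had intervals of -0.19 to 0.13 and -0.12 to 0.33, and Tmem41b has a near-identical pseudogene, Gm6223. Zfyve1 encodes DFCP1, a marker of the membrane domain where autophagosomes form. It measured 8.41, 9.80 and 9.14 FPKM in WT and 9.02, 8.14 and 7.47 FPKM in Fyco1-/-, in overlapping ranges (log2 -0.14, limma adjusted p = 0.345).

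Conjugation attaches ATG8 proteins to lipid in 2 linked reactions. ATG7 is the activating enzyme of both, ATG10 the E2-like enzyme that joins ATG12 to ATG5, and ATG3 the E2-like enzyme of the ATG8 proteins. The ATG12-ATG5 conjugate works with ATG16L1, and the ATG4 proteases cut ATG8 precursors and remove ATG8 from membranes. Of these 11 genes, 5 were higher and 6 lower in Fyco1-/-, none called.

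Atg3 (ENSMUSG00000022663, GRCm38 chromosome 16, 45158785 to 45188538) measured 15.1, 17.6 and 17.6 FPKM in WT and 21.1, 20.7 and 17.1 FPKM in Fyco1-/-. Fyco1-/- A and B lay above all WT libraries, while Fyco1-/- C lay below WT B and C. The log2 difference was 0.22 with an SE of 0.090 (limma adjusted p = 0.177). Atg5 measured 3.61, 3.54 and 3.95 FPKM in WT and 3.36, 3.24 and 3.06 FPKM in Fyco1-/-, all below WT (log2 -0.17, SE 0.090, limma adjusted p = 0.269). Atg12, whose product is joined to that of Atg5, measured 21.6, 20.4 and 20.8 FPKM in WT and 18.5, 19.8 and 20.48 FPKM in Fyco1-/-. The ranges of Atg12 touched, Fyco1-/- C being just above WT B (log2 -0.093, limma adjusted p = 0.356). Atg7 measured 4.16 ± 0.116 and 4.05 ± 0.267 FPKM, and Atg10 4.07 ± 0.226 and 4.43 ± 0.277 FPKM.

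The transcription factors TFEB and TFE3 control many lysosome and autophagy genes through the CLEAR element, whose core is the E-box CACGTG. RefSeq windows of 250 bases before a transcript start (GRCm38.p6) were matched by symbol for 28 of the 35 members, 33 windows in all. The core, which reads alike on both strands, was found in 4 of the 33 windows (12.1%) and in 6.02% of all 32851 windows. The core holds a CpG, and the member windows are richer in CpG than the background, with a median of 18 per window against 6. The full CLEAR palindrome, which contains the core, was in 0 of the 33 windows and in 0.24% of all windows. The 4 matching stretches are shown because the genes that hold them, Atg3, Atg5, Atg7 and Nrbf2, did not go in 1 direction. Capitals mark the core, and bases are given on the strand of the gene.
Atg3, chr16:45158715-45158783, plus strand: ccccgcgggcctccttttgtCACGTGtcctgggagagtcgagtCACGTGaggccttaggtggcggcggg
Atg5, chr10:44268305-44268338, plus strand: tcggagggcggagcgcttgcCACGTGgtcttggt
Atg7, chr6:114670944-114670989, plus strand: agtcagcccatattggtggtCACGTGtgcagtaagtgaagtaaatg
Nrbf2, chr10:67285464-67285509, minus strand: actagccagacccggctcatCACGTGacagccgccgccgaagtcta
The starts used for Atg3, Atg7 and Nrbf2 lie inside their GENCODE genes, that of Atg7 by far the furthest in. The first base of the core lies 94 and 71 bases before the start in Atg3, 14 in Atg5, 132 in Atg7 and 208 in Nrbf2. The log2 fold change was 0.22 for Atg3, -0.17 for Atg5, -0.036 for Atg7 and -0.15 for Nrbf2, none of them called. The part of the core in these values was not tested.

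The ATG4 genes ran in the order Atg4b, Atg4a, Atg4c and Atg4d by mean level, and the libraries of the last 2 overlapped. Atg4b, which encodes the most active of them, measured 7.15, 7.40 and 6.61 FPKM in WT and 6.78, 6.70 and 6.81 FPKM in Fyco1-/-. Atg4a measured 5.87, 5.63 and 5.08 FPKM in WT and 5.78, 5.86 and 6.38 FPKM in Fyco1-/-. Both overlapped between genotypes. Atg4a has a near-identical copy, Atg4a-ps, that read 0.0074 FPKM, and the part of this copy in the measured level of Atg4a was not tested. Atg4c measured 3.13, 2.81 and 2.20 FPKM in WT and 2.69, 2.55 and 2.78 FPKM in Fyco1-/-. Atg4d measured 2.14, 2.82 and 1.401 FPKM in WT and 2.36, 2.24 and 1.93 FPKM in Fyco1-/-, so that WT B and WT C were its extremes. It had the widest interval of the 35 members (-0.35 to 0.47), and 19.3% of its exon bases overlap Kri1 on the opposite strand, at 4.68 FPKM.

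Of the ATG16-like genes, Atg16l1 encodes the subunit that places the conjugate on the membrane, and Atg16l2 is its less studied relative. Atg16l1 measured 3.71, 4.33 and 3.96 FPKM in WT and 3.99, 4.01 and 4.10 FPKM in Fyco1-/-. Atg16l2 was the least abundant member, at 1.17, 0.994 and 0.908 FPKM in WT and 0.839, 0.926 and 0.812 FPKM in Fyco1-/-. Its ranges overlapped by 1 library, Fyco1-/- B being above WT C (log2 -0.16, SE 0.13, limma adjusted p = 0.504). Epg5, a tether of autophagosomes to lysosomes, measured 3.78 ± 0.0780 and 4.19 ± 0.507 FPKM, and Tecpr1, which binds the ATG12-ATG5 conjugate, 4.45 ± 0.704 and 4.14 ± 0.182 FPKM.

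Shares of paralogues within their family compare members inside 1 library. Ulk2 made up 55.3% ± 1.58 of Ulk1 plus Ulk2 in WT and 51.3% ± 4.83 in Fyco1-/- (exact permutation test, two-sided, p = 0.2). Atg2b made up 53.1% ± 0.735 of Atg2a plus Atg2b in WT and 49.8% ± 1.86 in Fyco1-/-, with every Fyco1-/- library below every WT library. Its exact permutation p of 0.1, two-sided, is the smallest that 3 libraries against 3 can give, so none of the 16 shares computed could pass 0.05. The lowest Benjamini-Hochberg adjusted value over the 16 was 0.533. The 16 include Atg14 and Uvrag, set against each other though not as paralogues (exact permutation p = 0.5, two-sided) and not drawn. In each pair of genes the shares mirror each other and give the same p-value. Atg4b held 40.7% ± 2.23 and 38.4% ± 0.305 of the ATG4 family in WT and Fyco1-/-, and its libraries also did not overlap (exact permutation p = 0.1, two-sided). Atg16l1 held 79.6% ± 3.04 and 82.4% ± 1.11 of its pair, and Wipi1 43.7% ± 0.925 and 43.8% ± 0.771 of its family.

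**Figure D3:**
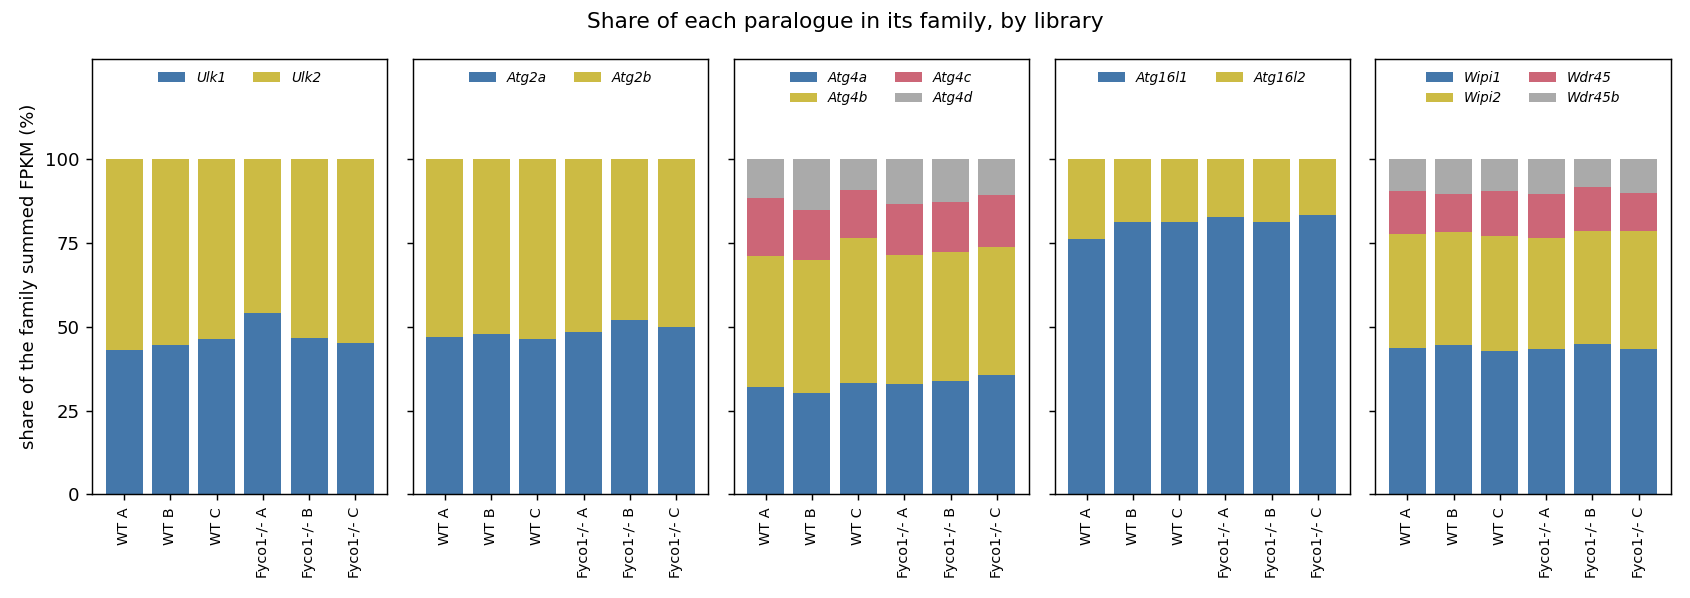
Share of each paralogue in the summed FPKM of its family (percent, stacked bars from 0) in each of the 6 libraries. Ulk1 in Fyco1-/- A takes 54.2% of its pair, the only library in which it exceeds Ulk2, while the WIPI shares differ by a few percentage points at most.

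The calls nearest the threshold turned on how the libraries were scaled. With median-of-ratios scaling, which sets the typical gene equal between libraries, 3 of the 35 members were called higher, against 9.25% of all tested genes called in either direction. They were Atg9a (log2 0.37, limma adjusted p = 0.0319), Becn1 (log2 0.23, limma adjusted p = 0.0342) and Atg101 (log2 0.23, limma adjusted p = 0.0475). With quantile normalization 2 were called, Atg9a (limma adjusted p = 0.0361) and Becn1 (limma adjusted p = 0.0415), against 9.14% of all tested genes. Ulk2 and Uvrag were further from a call, at limma adjusted p-values of 0.109 and 0.115 with median-of-ratios scaling. The scaling moved the median log2 fold change of all tested genes from -0.043 to -0.0034. It also moved the share of calls that were higher from 40.5% of 1012 to 56.5% of 1110.

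In the authors' deposited table, made with DESeq2, 2 of the 35 members had an adjusted p under 0.05, against 9.37% of its 13066 genes with an adjusted p. The authors' deposited table lists Atg9a at log2 0.36 with an adjusted p of 0.00267, and Becn1 at log2 0.23 with an adjusted p of 0.0193. For Atg101, Ulk2 and Uvrag the authors' deposited table gives adjusted p-values of 0.251, 0.157 and 0.229. The 2 genes called there were thus also the 2 called with quantile normalization, and 2 of the 3 called with median-of-ratios scaling, all from the same 6 libraries.

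**Figure D4:**
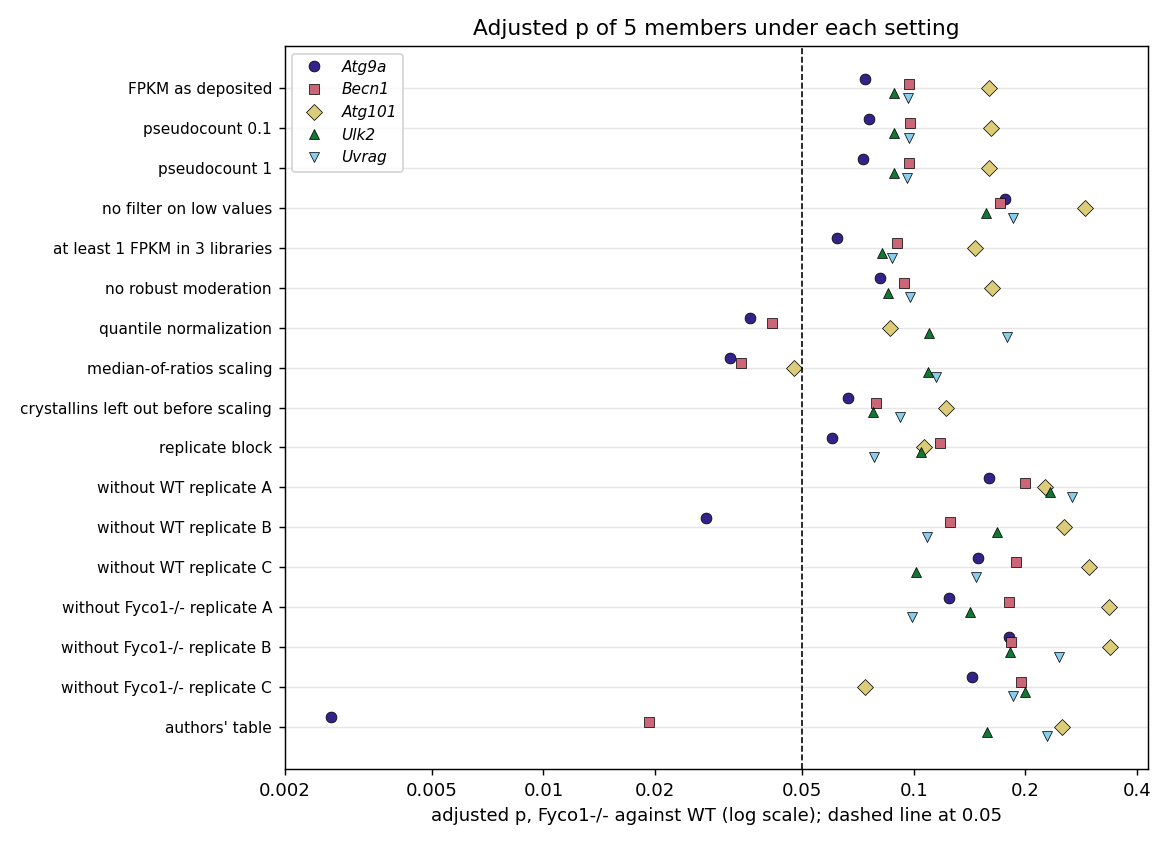
Adjusted p (log axis, dashed line at 0.05) of Atg9a, Becn1, Atg101, Ulk2 and Uvrag under each setting in limma and in the authors' table. Atg9a lies left of the line with quantile normalization, median-of-ratios scaling, without WT B and in the authors' table, while Ulk2 and Uvrag stay to its right throughout.

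Of the related genes listed beside the members, 6 passed the test. The tested genes of these lists were 5 ATG8 genes, 14 of the upstream kinases, 5 of transcription factors and 7 around Beclin 1. The lists were chosen with earlier results of these data known, so the calls are no unbiased sample of such genes. The counts of called genes below stand beside 8.43% of all 12001 tested genes called, 410 higher and 602 lower. Of the 5 ATG8 genes, whose products are conjugated to the membrane, 1 rose and none fell. Gabarapl1 rose from 105, 105 and 105 FPKM in WT to 132, 126 and 137 FPKM in Fyco1-/- (log2 0.32, limma adjusted p = 0.00083). Map1lc3b, the usual LC3 marker gene, measured 14.9 ± 0.0546 and 15.1 ± 0.338 FPKM.

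Of 14 tested genes of the nutrient and energy kinases upstream of ULK1, 3 rose and none fell. AMPK senses low energy and activates ULK1, and 2 of the 3 genes encode its subunits. The other AMPK subunit genes listed, Prkaa1, Prkaa2, Prkab1 and Prkag1, were not called. Prkab2, which encodes a beta subunit, rose from 30.5, 30.4 and 28.2 FPKM in WT to 40.4, 41.9 and 40.9 FPKM in Fyco1-/- (log2 0.46, SE 0.049, limma adjusted p = 0.000383). The 3 Fyco1-/- values lay well above the WT values, and the call held in all 15 alternative settings. Tsc2, which encodes tuberin, an inhibitor of mTORC1 signalling, rose from 64.4, 68.4 and 64.6 FPKM to 77.0, 81.0 and 77.7 FPKM (log2 0.25, SE 0.043, limma adjusted p = 0.0055), also in all 15 settings.

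Prkag2, which encodes a gamma subunit of AMPK, rose from 30.5 ± 2.17 to 36.2 ± 1.74 FPKM (log2 0.24, limma adjusted p = 0.0403). Leaving out WT A, WT B, WT C, Fyco1-/- A or Fyco1-/- B ended that call, at limma adjusted p-values of 0.0634 to 0.126. Prkab1, the other beta subunit gene, measured 4.78 ± 0.423 and 4.002 ± 0.298 FPKM and was not called (log2 -0.23, limma adjusted p = 0.173). Prkaa1 lay below WT in all Fyco1-/- libraries, as Prkab1 did (log2 -0.14, limma adjusted p = 0.257). Prkaa2 and Prkag1 overlapped between genotypes (log2 0.11 and 0.10, limma adjusted p = 0.41 and 0.765). Mtor itself measured 11.6 ± 1.38 and 11.0 ± 0.314 FPKM. Of the 5 transcription factor genes Tfeb, Tfe3, Mitf, Foxo1 and Foxo3 none was called. Foxo3 had the lowest p, from 4.95 ± 0.279 to 4.29 ± 0.466 FPKM (limma adjusted p = 0.249), followed by Tfe3, from 3.55 ± 0.319 to 3.06 ± 0.135 FPKM (limma adjusted p = 0.267).

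Of 7 tested genes grouped here around Beclin 1 and its complex, 1 rose and 1 fell. The grouping is by list only, and binding of each product to Beclin 1 was not examined. Trp53inp2, which encodes a nuclear and autophagosomal scaffold protein, rose from 2.68 ± 0.576 to 4.28 ± 0.280 FPKM (log2 0.60, limma adjusted p = 0.022), a call lost without Fyco1-/- B (adjusted p = 0.077) or C (adjusted p = 0.0671). Hmgb1, which encodes a chromatin protein that can also bind Beclin 1, fell from 34.0, 31.2 and 31.8 FPKM in WT to 28.3, 23.8 and 21.8 FPKM in Fyco1-/- (log2 -0.39, limma adjusted p = 0.0225). All Fyco1-/- values of Hmgb1 lay below WT, but leaving out WT A, WT B, WT C, Fyco1-/- B or Fyco1-/- C ended the call, at limma adjusted p-values of 0.0522 to 0.0876. Bcl2, which encodes an inhibitor of Beclin 1, measured 2.19 ± 0.0482 and 2.58 ± 0.177 FPKM (limma adjusted p = 0.257).

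**Figure D5:**
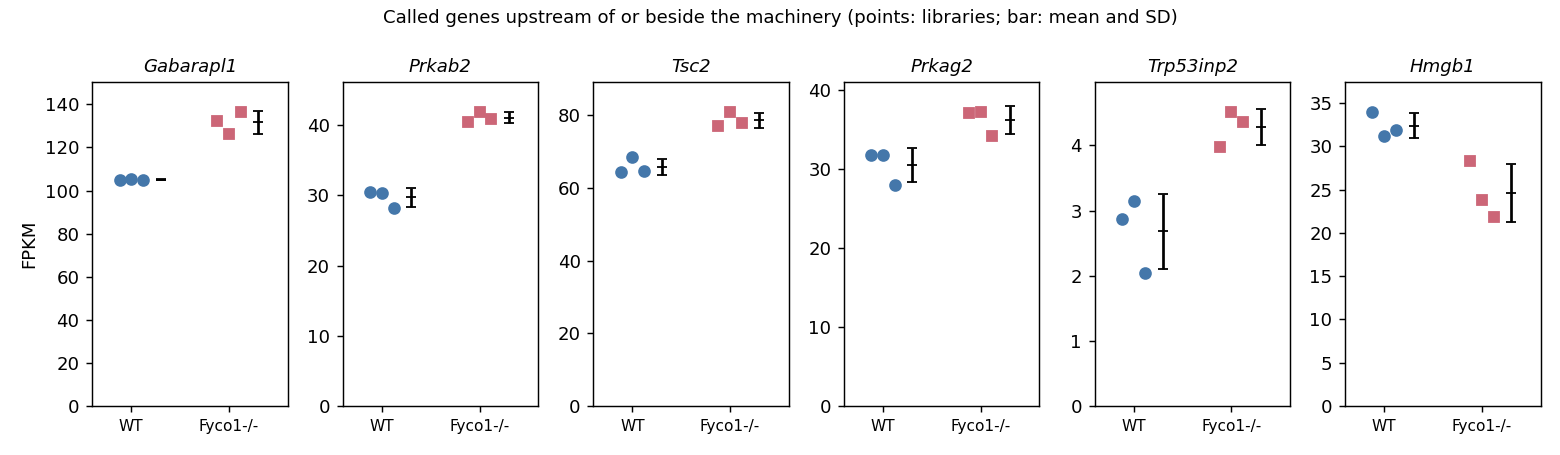
FPKM of the 6 called genes outside the 35 members, by library (WT blue circles, Fyco1-/- red squares), with the mean and SD of each genotype beside them and axes from 0. Gabarapl1, Prkab2, Tsc2, Prkag2 and Trp53inp2 are higher in Fyco1-/- and Hmgb1 is lower, with no overlap between genotypes in any of the 6.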

How the data were processed

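RNA-seq of newborn mouse lenses was available as 1 table of 6 libraries, 3 per genotype. The authors aligned reads to GRCm38/mm10 with STAR 2.5 and counted them per gene with HTSeq 0.6.1, per the series' design text and the submitters' processing notes, and deposited FPKM values. The gene annotation, scaling total and strand setting are not given in the sources used here. The authors also deposited log2 fold changes, p-values and adjusted p-values, which the authors made with DESeq2.

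Genes with a mean of at least 0.5 FPKM (12001) entered limma 3.58.1 (R 4.3.3). The response was log2(FPKM + 0.5), moderation used the trend and robust options, and genotype was the only term, with two-sided p-values and Benjamini-Hochberg adjustment over all tested genes. All 35 members passed this filter. A log2 fold change on this scale understates the ratio of low genes. The fit was tested on simulated data. Members and lists were chosen with earlier results of these data known, and no test was made over the list. All members could be named. Values by library are given for the 12 lowest p, the 3 highest and 3 lowest levels and the families. Of related genes, those called are given, or the 2 lowest p of a list without a call. Values by library of Atg14, and values of Map1lc3b, Prkaa1, Prkaa2, Prkab1, Prkag1, Mtor, Bcl2 and single markers were added after they were seen.

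Positions and exon lengths come from GENCODE release M21 (93.3% of entries matched by symbol). With those lengths, 51.2% of 32773 values of 1 to 20 reads lay no more than 0.05 from a whole number (chance gives 10%), so reads are estimates and no counting intervals are given. Overlaps of at least 50 exon bases, and copies of at least 95% identity over 500 bases (blastn 2.17.0), were recorded. Lim2, on 2 rows, was left out of the fibre markers. Libraries that share a letter did not deviate together (correlations -0.03, 0.03 and 0.03), so the letters give no pairing. Libraries are labelled biological replicates of pooled lenses, so p-values measure the spread between pools.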

Additional observations from a re-analysis of the deposited data

How the results depend on the processing

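Each choice was changed on its own in 15 settings: pseudocounts of 0.1 and 1, 2 other filters, no robust moderation, scaling by quantiles, by median of ratios or with the crystallin genes removed, a replicate block, and each library left out. Of the 35 members, 3 were called in any. The number called was 2 with quantile normalization, 3 with median-of-ratios scaling and 0 to 1 with a library left out (Atg9a, without WT B). The members' median log2 fold change was 0.035 with quantile normalization, 0.031 with median-of-ratios scaling and -0.015 to 0.017 with a library left out. Over all genes 568 were called with no filter on low values and 611 to 870 with a library left out, against 1012. With the replicate block 929 genes were called, and no member was called with or without that pairing. Fyco1 was called in no setting.

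Uncalled members near 0 changed sign. Median-of-ratios scaling moved the median log2 fold change of all tested genes from -0.043 to -0.0034. Quantile normalization moved that median to -0.0027. With quantile normalization the log2 fold changes of Ulk1, Rb1cc1, Atg2b, Wdr45b, Vmp1, Atg4c and Atg7 were 0.040, 0.035, 0.015, 0.028, 0.013, 0.069 and 0.021. With median-of-ratios scaling those of Ulk1, Rb1cc1, Wdr45b, Vmp1, Atg4c and Atg7 were 0.022, 0.026, 0.031, 0.015, 0.031 and 0.0055. With a library left out the ranges were -0.17 to 0.082 (Ulk1), -0.076 to 0.052 (Rb1cc1), -0.043 to 0.098 (Pik3c3), -0.25 to 0.053 (Atg14), -0.00080 to 0.044 (Wipi1), -0.050 to 0.078 (Wdr45), -0.081 to 0.082 (Wdr45b), -0.13 to 0.085 (Atg4c), -0.15 to 0.25 (Atg4d), -0.035 to 0.064 (Atg16l1) and -0.17 to 0.026 (Tecpr1). The cause of these changes of sign was not tested. Without a filter on low values, Prkag2, Trp53inp2 and Hmgb1 lost their calls (limma adjusted p = 0.109, 0.0739 and 0.0737). The fewest estimated reads of a member in a library were 86, for Nrbf2, and their part in its error was not tested.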
